A study of Mus musculus with 4 samples.

Results

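The cells described here are CD8 T cells with high transcript counts of granzyme A (Gzma) and granzyme B (Gzmb), sorted out of lymph nodes that drained melanomas in mice. They were chosen by measured values: a barcode had to hold at least 3 unique molecular identifiers (UMIs, counted transcripts) of Gzma and Gzmb together, at least 1 of Cd3e or Cd3d and at least 1 of Cd8a or Cd8b1, with none of Trdc, H2-Aa or Cd79a, which mark γδ T cells, antigen-presenting cells and B cells. Of 47820 barcodes, 43971 passed filters on genes, UMIs and mitochondrial RNA, 39854 of these met the CD8 T cell criteria, and 1637 also met the granzyme criterion. These 1637 are called granzyme-high cells, and the 35556 CD8 T cells without any UMI of Gzma or Gzmb are called granzyme-zero cells.

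CD8+ PD-1+ CD44+ T cells had been sorted from lymph nodes of female C57BL/6 mice, bought at 6 weeks of age, that carried B16F10GP tumors, a B16F10 melanoma line expressing the glycoprotein of LCMV as a known antigen. Mice were left untreated (Control), had 1 tumor irradiated (RT), received an antibody against PD-L1 (αPD-L1) or received both (RT + αPD-L1), and the labels give day 7 for the treated groups. Each treatment was 1 droplet library in which cells of 5 mice, marked with hashtag antibodies, were pooled, so library and treatment cannot be told apart, and the mouse was the replicate. The nodes drained implanted tumors of a single cell line. Because cells were sorted, the shares below are shares of the sorted cells and not of the node. The study's methods also describe a sort of naive CD8+ CD44- CD62L+ cells from untreated mice, pooled as controls. Whether the Control library holds such cells was not tested.

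Granzymes are serine proteases that killer lymphocytes store in granules together with perforin, and that enter target cells after perforin opens the membrane. In CD8 T cells they are induced by antigen and cytokines as cells leave the naive or stem-like state marked by the transcription factor TCF-1 (Tcf7). Gzmk and Gzma lie in 1 cluster of granzyme genes, Gzmb lies in another, and KLRG1 and NKG2D (Klrk1) are lectin receptors found on many effector cells. On GRCm38 with GENCODE vM21, Gzma lies on chromosome 13 from 113093825 to 113100981, Gzmk on the same chromosome from 113171608 to 113225908, and Gzmb on chromosome 14 from 56258838 to 56262260, all on the minus strand.

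Each library held between 100483743 and 119963312 UMIs. Granzyme-high cells were richer in RNA than the rest, with a median of 11560 UMIs and 3182 genes against 6690.5 UMIs and 2253 genes in granzyme-zero cells. Barcodes with several hashtags made up 12.6% of the granzyme-high cells (206 of 1637) and 7.80% of the granzyme-zero cells. They were left out of every comparison between mice, which used the 1389 granzyme-high cells with exactly 1 hashtag. Of the granzyme-high barcodes, 80 were also present in another library, and 1 of them met the rule in both libraries that held it.

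The label was checked against markers that had been proposed with earlier results of these data known, so that the check is not independent support. Each cell was thinned to 3000 UMIs so that markers were read at equal depth. Shares were averaged over the 13 mice with at least 10 granzyme-high cells. The classes were still those of the full counts, so thinning did not set aside the part of depth in the choice of cells. A UMI of Gzmk was found in 35.6% of granzyme-high and 3.82% of granzyme-zero cells (50.8% and 5.68% without thinning). Klrk1 was found in 21.5% and 3.48% (41.9% and 6.05% without thinning), and Klrg1 in 6.19% and 0.0784% (14.9% and 0.207%). Gzmk and Klrk1 therefore marked a minority of the cells at equal depth, and most had no UMI of Klrg1.

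Free granzyme RNA in the droplets was judged from 209 barcodes that held at least 3 UMIs of H2-Aa or of Cd79a and none of Cd3e or Cd3d, with a median of 5405 UMIs against 6832 in CD8 T cells. At least 3 granzyme UMIs were found in 1 of these barcodes (0.478%) and in 4.11% of CD8 T cells. At least 1 granzyme UMI was found in 9 (4.31%), and in the RT + αPD-L1 library in 6 of 46 (13%) against 27.9% of its CD8 T cells. The 1 barcode with at least 3 was in that library, 1 of 46 (2.17%) against 11.5% of its CD8 T cells. Granzyme-high shares of its mice other than mouse 3 were 0.905% to 2.91%. The other libraries held 0 of 35 (Control), 0 of 44 (RT) and 0 of 84 (αPD-L1). Upper limits of exact binomial intervals were 10.0%, 8.04% and 4.30%, above the granzyme-high share of every mouse there. The part of free RNA in these shares was not tested.

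Most markers of other cells were low in the granzyme-high cells or shared with killer T cells, but some stood above granzyme-zero cells. A UMI of Foxp3 was seen in 2.69% of the 1637 cells, of Cd4 in 0.428% and of the natural killer (NK) cell receptor gene Ncr1 in 0.611%. Over the 13 mice the summed level of 8 NK markers was 1455 to 2630 CPM (counts scaled to a common library total, median 1864) in granzyme-high cells against a median of 796 CPM in granzyme-zero cells, most of it Nkg7. Summed γδ T markers were 1.89 to 89.0 CPM (median 27.7) against 10.6, B cell markers 6.91 to 70.2 (median 46.8) against 41.4, and myeloid markers 0 to 22.4 (median 5.53) against 7.13 with S100a8 and S100a9 at 0. Dendritic markers were 6.85 to 100.2 CPM (median 19.2) against 75.3, plasmacytoid dendritic markers 87.3 to 782 (median 184) against 131, mostly Bst2, and melanoma markers 0 to 1.40 (median 0) against 0.602 with Mlana, Dct and Tyrp1 at 0. Regulatory T markers were 18.2 to 126 CPM (median 82.2) against 107, CD4 T markers 3.21 to 31.2 (median 13.7) against 15.1, and natural killer T or MAIT markers 74.3 to 140 (median 106) against 97.8 with Il4 at 0. Of the genes in these lists that could be tested, the immunoglobulin gene Igkc stood out at 14.8 CPM in granzyme-high and 1.25 CPM in granzyme-zero cells, a difference of 3.60 ± 0.31 (SE) on the log2 scale, while the B cell gene Cd79b was lower by 0.54. The part of such cells or of their RNA in the results was not tested.

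The granzyme-high share of CD8 T cells was small in nearly every mouse and large in a single one. In Control mice it was 0.761%, 1.16%, 0.706%, 0.503% and 0.631%. After RT it was 0.631%, 2.38%, 1.83%, 0.719% and 0.767%, and under αPD-L1 it was 0.130%, 3.70%, 1.18%, 1.23% and 0.927%. Under RT + αPD-L1 it was 0.905%, 2.91%, 20.2%, 2.25% and 1.47%. The last group overlapped Control only through its mouse 1, and mouse 3 alone gave 882 of the 1389 cells that were assigned to mice. The number of its cells depended on how hashtags were read. With HTODemux, another way of giving barcodes to mice, mouse 3 held 401 granzyme-high cells of 2201 CD8 T cells (18.2%), against 882 of 4369 here.

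**Figure D1:**
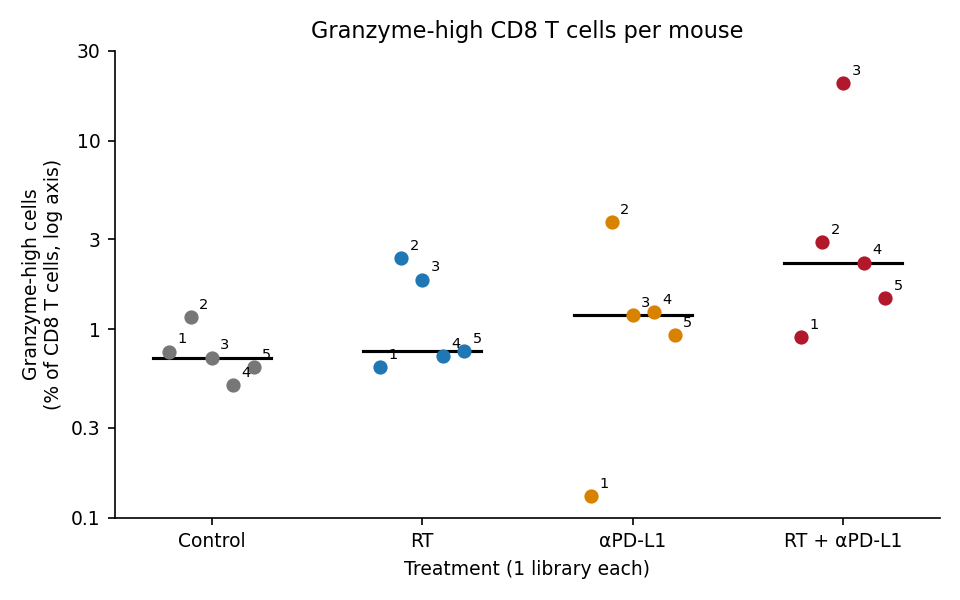
Granzyme-high cells as a percent of CD8 T cells (vertical log axis) in each of the 5 mice of the 4 treatments, with each point marked by its mouse number and horizontal lines at the group medians. RT + αPD-L1 mouse 3 sits at 20.2%, and the other 19 mice lie between 0.130% and 3.70%.

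Mean shares were 0.753% ± 0.249 (SD, n = 5) in Control, 1.27% ± 0.792 after RT, 1.44% ± 1.34 under αPD-L1 and 5.54% ± 8.22 under RT + αPD-L1, or 1.88% ± 0.878 (n = 4) without mouse 3. The difference of 4.79 percentage points between RT + αPD-L1 and Control had p = 0.0159 in a two-sided exact permutation test over mice, where 0.00794 is the smallest p possible, and 0.0794 after Benjamini-Hochberg adjustment over 5 pairs. The other 4 pairs had adjusted p = 0.349 in the same exact test. After thinning to 3000 UMIs the means were 0.329%, 0.709%, 0.904% and 3.69%, in the same order of treatments, with mouse 3 at 15.1%, and the adjusted p for RT + αPD-L1 against Control was 0.159 in the exact test. When only granzyme-high cells without a UMI of the proliferation genes Mki67 and Top2a were counted, still as a percent of all CD8 T cells, the means were 0.290%, 0.333%, 0.228% and 2.50%, and the difference between RT + αPD-L1 and Control was 2.21 points with an adjusted p of 0.0132 in the exact test.

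Gzmb was more widespread among the granzyme-high cells than Gzma, although either gene could admit a cell. Averaged over 13 mice, 51.6% of the cells had Gzmb alone, 39.0% had both and 9.45% had Gzma alone. Pooled over all 1637 cells the order changed, with 57.7% for both, 32.7% for Gzmb alone and 9.65% for Gzma alone. RT + αPD-L1 mouse 3, with 882 cells and 63.2% for both, weighs most in the pooled values. The Gzma level ran from 54.8 to 1597 CPM between mice (median 697) and the Gzmb level from 476 to 2797 CPM (median 708). Gzma averaged 340 ± 276 CPM (SD) in Control, 934 ± 715 after RT, 554 ± 674 under αPD-L1 and 1027 ± 410 under RT + αPD-L1, and Gzmb 653 ± 143, 733 ± 179, 928 ± 225 and 1136 ± 1116. These levels follow from the rule and are given without a test.

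Values on either side of the threshold were given by granzyme UMIs, pooled over all libraries. Cells with 2 granzyme UMIs (488 cells, just outside) and with 3 (213 cells, just inside) held 89.1 and 161 CPM of Gzmk, 4.11 and 4.70 CPM of Klrg1, 1285 and 2273 CPM of Ccl5, and 415 and 322 CPM of Tcf7. At 12 or more granzyme UMIs (857 cells) Gzmk reached 436 CPM and Klrg1 75.4 CPM, and Tcf7 was at 126 CPM. Cells without granzyme UMIs held 25.7, 0.302 and 541 CPM of these genes. The make-up of these bins differed by library, since RT + αPD-L1 gave 642 of the 857 cells at 12 or more UMIs, 143 of 213 at 3, 344 of 488 at 2 and 7291 of 35556 without granzyme UMIs, and its part in these levels was not tested.

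The genes outside the rule were compared between granzyme-high and granzyme-zero cells of the same mice. Counts were summed per mouse and class in 13 mice: Control 1, 2 and 5, RT 2, 3 and 5, αPD-L1 2, 3 and 4, and RT + αPD-L1 2, 3, 4 and 5. edgeR's quasi-likelihood test with the mouse as a block and Benjamini-Hochberg adjustment was applied to 10596 genes, and genes with an adjusted p under 0.05 were called. Most genes were called (54.5%), 24.8% higher and 29.7% lower, so a call alone says little about a gene, and sizes and lists are read against that background. The median difference over all genes was −0.07 on the log2 scale.

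The largest rises that met the naming rule were in Klrg1, Havcr2 and Lgals3. Klrg1, an inhibitory lectin receptor gene of effector cells, ranged from 8.74 to 72.2 CPM in granzyme-high cells (median 22.3) and from 0 to 1.26 CPM in granzyme-zero cells (median 0.312), a log2 difference of 6.51 ± 0.25 (SE). Havcr2, which encodes the inhibitory receptor TIM-3, ranged from 25.3 to 105 CPM (median 53.5) against 0.874 to 5.06 (median 2.29), a difference of 4.53 ± 0.15. Lgals3, encoding galectin-3, ranged from 267 to 1212 CPM (median 816) against 18.6 to 46.1 (median 29.9), a difference of 4.47 ± 0.13. The ranges of both classes did not overlap for any of these 3 genes. The naming rule asks for the same sign in every mouse, so agreement of the mice is no added support for a gene it named. Of all tested genes, 5.42% were higher and 10.8% lower in every mouse.

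The chemokine receptor gene Ccr2, whose product guides cells to inflamed tissue, was higher by 3.87 ± 0.17. Gzmk ranged from 127 to 457 CPM (median 313) against 7.41 to 66.0 (median 22.8), a difference of 3.63 ± 0.14. Il12rb2, a chain of the interleukin-12 receptor, was higher by 2.97 ± 0.21, Klrc1, encoding the inhibitory receptor NKG2A, by 2.95 ± 0.14, and Fasl, a death ligand, by 2.67 ± 0.16. Anxa1 (annexin A1), Osbpl3 (a lipid-binding protein) and Fam129b were also among the largest rises that met the naming rule, at 3.10, 2.71 and 3.39. Klrk1 ranged from 12.7 to 197 CPM (median 96.8) against 7.02 to 32.3 (median 13.9) and was higher in 13 of 13 mice, by 2.63 ± 0.18.

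The largest falls that met the rule were in Capn3 (a calpain protease, −3.13), Wnt10a (a Wnt ligand, −2.94), Sox4 (a transcription factor, −2.79), Tdrp (−2.76), Pik3ip1 (an inhibitor of phosphoinositide 3-kinase, −2.73), Tmem108 (−2.71), Ramp1 (a receptor co-factor, −2.71) and Rflnb (−2.68). The rule asked each of the 8 to be lower in every mouse. Capn3, for instance, averaged 4.64 CPM in granzyme-high and 34.9 CPM in granzyme-zero cells.

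**Figure D2:**
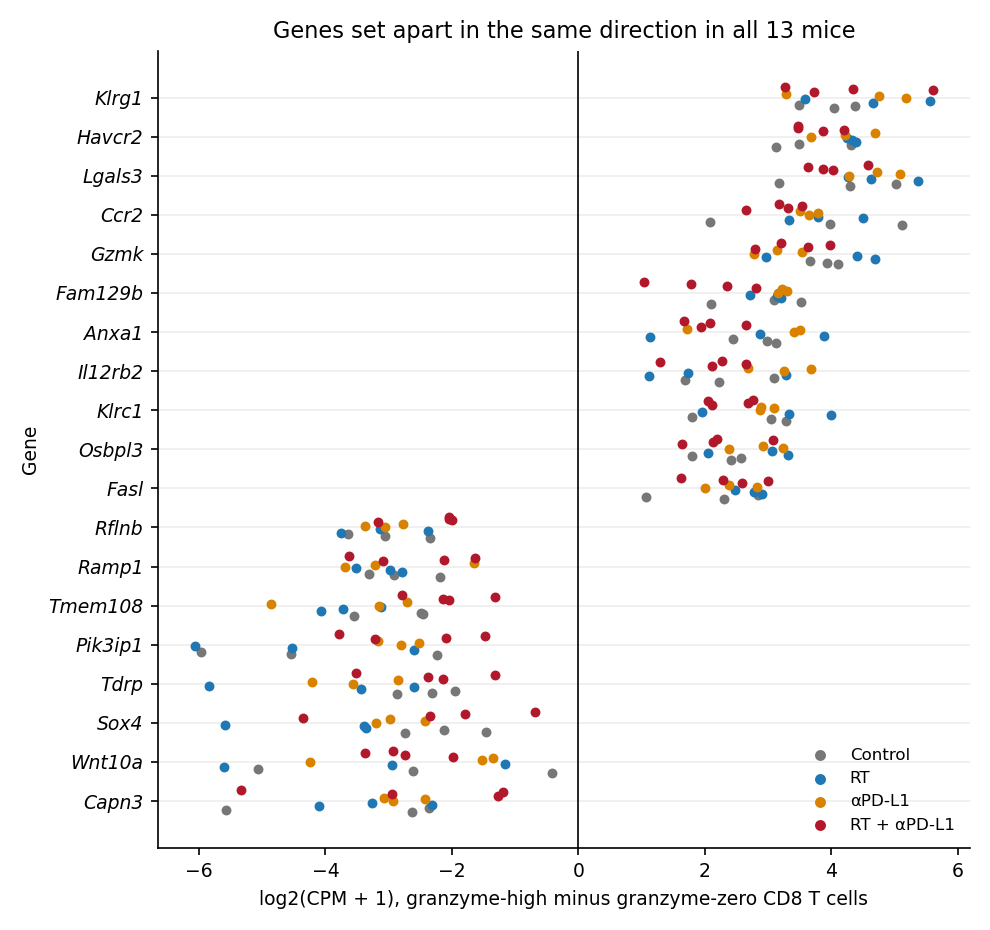
Difference of log2(CPM + 1) between granzyme-high and granzyme-zero cells (horizontal axis) in each of 13 mice for 19 genes named by the rule, 1 point per mouse, colored by treatment. The naming rule asked for the same sign in every mouse. Every point of the 11 upper genes, Klrg1 to Fasl, therefore lies right of 0. Every point of the 8 lower genes, Rflnb to Capn3, lies left of it. Adding 1 to the CPM makes the differences of low genes smaller than the fitted ones.

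Lists of genes with a known role were then counted. The 20 lists of T cell programs and 10 lists of other cells are described by the members that passed the test, beside the shares for all genes given above.

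In the list of granule and killing genes, 10 of 14 tested members rose and none fell (median 1.05). Prf1, encoding perforin, ranged from 18.7 to 111 CPM (median 50.5) against 20.3 to 30.1 (median 26.5) and rose by 1.31 ± 0.12, higher in 11 of 13 mice. Gzmm rose by 2.30, the granule membrane gene Nkg7 by 1.09, and the granzyme inhibitor genes Serpinb9 and Serpinb6b by 2.55 and 1.65. The Prf1 ranges of both classes overlapped. In the list of NK-type receptors 5 of 12 rose (Klrg1, Klrk1, Klrc1, Klre1 and Slamf7) and 1 fell, the adhesion receptor gene Cd226 at −0.34 (median 0.59).

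Transcription factors of effector cells rose in 12 of 20 and fell in 3 (median 0.53). Tbx21, encoding T-bet, ranged from 37.5 to 98.6 CPM (median 62.1) against 8.47 to 27.6 (median 12.4) and rose by 2.26 ± 0.12, with no overlap between the classes. Prdm1 (BLIMP-1) rose by 3.66 and Zeb2 by 1.96, Id2 by 1.17 and Eomes by 0.72. Tox, a factor of chronically stimulated T cells, fell by 1.08 and Ikzf2 (Helios) by 1.43.

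In the stem and memory list 15 of 19 fell and 1 rose (median −1.43). Tcf7 ranged from 65.1 to 238 CPM (median 151) against 526 to 594 (median 562) and fell by 1.91 ± 0.11. Lef1, Id3, the interleukin-7 receptor gene Il7r and the lymph node homing gene Ccr7 fell by 1.86, 1.72, 1.70 and 1.63. The 1 gene that rose was Il2rb, a receptor chain for interleukins 2 and 15, at 0.77. At equal depth a UMI of Tcf7 was still found in 30.9% of granzyme-high cells against 74.6% of granzyme-zero cells (58.2% and 89.8% without thinning), and Tcf7 together with Ly6a in 13.3% against 14.9% (36.7% and 26.1% without thinning, the opposite order).

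**Figure D3:**
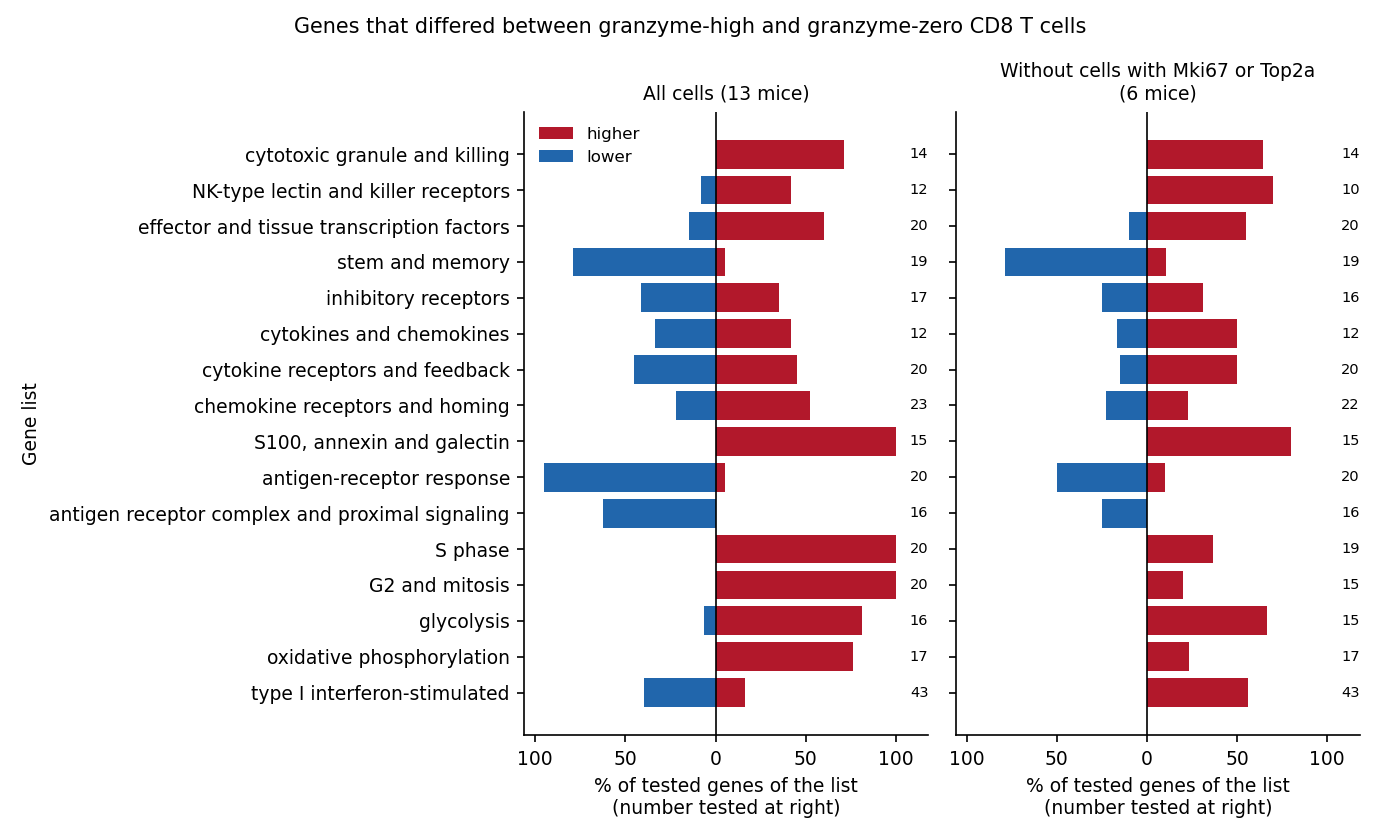
Percent of the tested genes of 16 T cell lists that were higher (right) or lower (left) in granzyme-high than in granzyme-zero cells by edgeR's test, in all cells of 13 mice and without Mki67 or Top2a cells in 6 mice, with the number tested beside each bar. The S phase, G2 and mitosis, and S100, annexin and galectin lists are higher in full in the left panel. The interferon-stimulated list, mostly lower among its calls there, has only higher calls in the right panel, which holds no Control mouse.

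Inhibitory receptors did not move as a group, with 6 of 17 higher, 7 lower and a median of −0.07. Havcr2, Tigit (1.23), Entpd1 (the ectoenzyme CD39, 3.14) and Pdcd1 (0.49) were among those that rose. Ctla4 (−1.13) and Izumo1r (the folate receptor FR4, −2.41) were among those that fell. Pdcd1, the gene of the sorted marker PD-1, was higher in 8 of 13 mice. Among costimulatory genes, 2 of 9 rose, Tnfrsf9 (4-1BB, 0.94) among them, and 3 fell, Tnfsf8 (CD30 ligand, −2.10) among them (median −0.29).

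Of cytokine and chemokine genes 5 of 12 rose and 4 fell (median 0.09). Ccl5, a chemokine of memory and effector T cells, ranged from 297 to 4413 CPM (median 2678) against 201 to 645 (median 375) and rose by 2.59 ± 0.18. Ccl3, Ccl4 and Ifng (interferon gamma) rose by 2.22, 2.09 and 1.34. Il2 fell by 2.13 and Ltb, a lymphotoxin chain, by 1.40. Cytokine receptors were split, 9 of 20 higher and 9 lower (median −0.04), with the interleukin-18 receptor chain Il18rap at 1.80 and the interleukin-6 receptor Il6ra at −1.63. Chemokine receptors and homing genes rose in 12 of 23 and fell in 5 (median 0.26), with Cx3cr1 at 3.89, the integrin Itgax at 3.18, Cxcr3 at 0.93 and the gut-homing receptor Ccr9 at −2.60.

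The S100, annexin and galectin list rose in full, 15 of 15 (median 1.34), with S100a6 at 2.35, Lgals1 at 2.17 and S100a4 at 2.15. The antigen-receptor response list fell in 19 of 20 (median −0.95), with the early transcription factor genes Fos, Junb and Egr1 at −1.48, −1.28 and −1.22. The exception was Dusp5, a phosphatase gene, which rose by 1.25. Components of the receptor complex and its proximal signaling fell in 10 of 16 and rose in none (median −0.25).

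Cell cycle genes separated the classes as a whole. All 20 S phase genes and all 20 G2 and mitosis genes rose (medians 1.22 and 1.53), with Rrm2, a subunit of ribonucleotide reductase, at 2.03 and Mki67 at 1.52. At equal depth, with the classes chosen at full depth, a UMI of Mki67 or Top2a was found in 49.0% of granzyme-high and 19.2% of granzyme-zero cells (66.5% and 30.1% without thinning). Glycolysis genes rose in 13 of 16 and fell in 1 (median 0.61), with Ldha, encoding lactate dehydrogenase, at 0.73, and oxidative phosphorylation genes rose in 13 of 17 (median 0.35), with Cox5a at 0.75.

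Smaller lists were mixed. MHC class I presentation had 2 higher and 7 lower of 18 (median −0.09), with the classical heavy chain gene H2-K1 at −0.44 and the chaperone gene Pdia3 at 0.73. Survival and death genes had 6 higher and 7 lower of 14 (median −0.30), with the protective gene Bcl2 at −1.43 and the pro-apoptotic gene Pmaip1 at 1.59. In the Ly6 family 2 of 5 rose, Ly6a (Sca-1) by 1.40 and Ly6c2 by 0.38. Of the lists of other cells, NK markers had 4 of 6 higher, among them Tyrobp at 1.46, γδ T markers 1 of 1 (Trgv2, 1.32), CD4 T markers 1 of 2, regulatory T markers 1 higher and 1 lower of 3, and B cell markers 1 higher and 1 lower of 2. Dendritic and myeloid markers each had 1 tested gene, which was lower (Cd74 at −1.84 for dendritic cells), natural killer T or MAIT and plasmacytoid dendritic markers had no call among 2 tested genes each, and no melanoma marker could be tested.

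The direction of the interferon-stimulated genes turned when dividing cells were set aside. With all cells, 7 of 43 rose and 17 fell (median −0.17). When cells with a UMI of Mki67 or Top2a were left out of both classes, 24 of 43 rose and none fell (median 0.55) in the 6 mice with enough cells. These were RT mice 2 and 5 (13 and 10 granzyme-high cells left), αPD-L1 mouse 2 (24) and RT + αPD-L1 mice 2, 3 and 4 (17, 402 and 15). No Control mouse was among them. All cells of the same 6 mice gave 6 higher and 11 lower (median −0.10). Of the 20 T cell lists, the medians of 6 changed sign in this way: the interferon-stimulated genes, inhibitory receptors (0.18), costimulatory genes (0.49), cytokine receptors (0.52), MHC class I presentation (0.02) and survival and death (0.13). Within the interferon list Ifitm1, Ifitm2 and Ifitm3, membrane proteins that restrict virus entry, rose by 4.98 ± 0.43, 2.68 and 2.37, and Ifitm1 ranged from 0 to 271 CPM (median 47.5) against 0.489 to 11.7 (median 2.53).

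Granzyme-high cells were next set against 2 classes of granzyme-zero cells of the same mice, chosen by marker UMIs. The first class held a UMI of both Tcf7 and Ly6a, genes of stem-like and interferon-exposed cells, and here 51.3% of 9258 genes were called (23.8% higher, 27.5% lower) by the same edgeR quasi-likelihood test with Benjamini-Hochberg adjustment. Klrg1 (6.51), Lgals3 (3.66), Havcr2 (3.72), Ccr2 (3.34), Gzmk (3.31) and Fasl (2.47) were higher. They met the naming rule, which asks for the same sign in every mouse, and 5.03% of all tested genes were higher in every mouse. Il2ra, the high-affinity interleukin-2 receptor chain, was higher by 2.12 ± 0.23. Dapl1, a gene of naive and memory T cells, averaged 101 CPM in granzyme-high and 615 CPM in the Tcf7+ Ly6a+ cells (−2.74 ± 0.19), and Nrn1 was lower by 2.48. In the interferon list 4 of 41 were higher and 26 lower (median −0.42), and in the stem and memory list, without Tcf7, 1 of 18 was higher and 14 lower (median −1.05). The class was chosen for Tcf7 and Ly6a, genes of these programs, so these 2 lists were not independent of the choice. Dividing cells were kept in both classes here.

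The second class held a UMI of both S100a4 and Cxcr3, genes of effector-memory cells. Of 7718 genes 44.7% were called (22.4% higher, 22.3% lower). Gzmk (2.89), Ccr2 (2.62), Havcr2 (2.52) and Lgals3 (2.30) again met the naming rule as higher, which asks for the same sign in every mouse. Of all tested genes, 4.81% were higher in every mouse. Prf1 rose by 1.48 ± 0.15, from an average of 21.9 to 60.4 CPM. The spermidine synthase gene Srm was higher by 2.15 and Tnfrsf9 by 1.98. Ifng averaged 148 CPM in granzyme-high and 157 CPM in S100a4+ Cxcr3+ cells, a difference of −0.05 ± 0.14 that did not pass the test, while Il2 was lower by 3.33 ± 0.29, Tnf by 1.11 and the integrin gene Itgb1 by 1.07. Inhibitory receptors were lower in 10 of 14 and higher in 3 (median −0.57), Pdcd1 by 0.45 among those that fell. In this comparison granule genes rose in 9 of 14 and fell in 3 (median 0.41), the S100, annexin and galectin list rose in 8 of 14 and fell in 2, and stem and memory genes fell in 10 of 18. The class was chosen for S100a4, so the S100, annexin and galectin list, tested without that gene, was not independent of the choice. Dividing cells were kept in both classes here too.

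Differences among the granzyme-high cells themselves could be tested in 2 mice, αPD-L1 mouse 2 (25 cells with Gzma alone, 39 with Gzmb alone) and RT + αPD-L1 mouse 3 (78 and 247), where alone means at least 3 UMIs of 1 gene and none of the other. Of 6842 genes 413 (6.04%) were called, 2.66% higher and 3.38% lower in the Gzma-only cells (182 and 231 genes), and with RLE scaling 435 were higher and 380 lower. The interferon-induced gene Ifitm1 had 0 UMIs in Gzma-only and 364 in Gzmb-only cells, at least 41.3-fold lower against a floor of 3 counts over the class. Lad1 had 0 and 66 UMIs, at least 7.49-fold lower. Ifitm2 had 4 and 264 UMIs, and Tnfrsf4, the costimulatory receptor OX40, had 4 and 125.

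In the other direction, Dapl1 averaged 299 CPM in Gzma-only and 67.1 CPM in Gzmb-only cells (2.17 ± 0.23), Tcf7 371 and 185 CPM (1.04 ± 0.18) and Gzmm 113 and 29.4 CPM (1.77 ± 0.27). Gzmk averaged 239 and 205 CPM and did not pass the test. The G2 and mitosis list was higher in 8 of 20 and lower in none, glycolysis lower in 4 of 14, and the stem and memory list higher in 3 of 18 and lower in 1. Rflnb, Pimreg, Fam83d, Hid1, Zscan26, Nsg2, Armc3, Depdc1b, Klre1 and St3gal6 also met the naming rule as higher, by 1.55 to 2.34, and Trmt61a, Nefh, Smyd5 and Grwd1 as lower. Both mice had to agree, and with only 2 of them the calls describe these mice.

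Between treatments, 13 mice with at least 10 granzyme-high cells were compared in 1 edgeR quasi-likelihood fit with Benjamini-Hochberg adjustment over 5883 genes. RT + αPD-L1 against Control gave 72 calls (1.22%), 62 higher (1.05%) and 10 lower (0.17%). RT against Control gave 2 calls (0.034%) and αPD-L1 against Control gave 3 (0.051%). RT + αPD-L1 differed from RT in 54 genes (0.918%), 51 of them higher (0.867%) and 3 lower (0.051%), and from αPD-L1 in 106 (1.8%), 100 of them higher (1.7%) and 6 lower (0.102%). The last 2 comparisons share the RT + αPD-L1 mice with the first.

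Many of the genes higher under RT + αPD-L1 than in Control were interferon-stimulated. Ifit1, an RNA-binding protein induced by interferon, stood at 14.5, 1.69 and 7.45 CPM in the Control mice, 8.65, 9.07 and 72.5 after RT, 27.4, 37.5 and 0 under αPD-L1, and 133, 227, 97.5 and 35.2 under RT + αPD-L1. Every RT + αPD-L1 mouse lay above every Control mouse, as 5.39% of all tested genes did, and RT mouse 5 and αPD-L1 mouse 3 lay above the lowest RT + αPD-L1 mouse. The difference from Control was 4.92 ± 0.99 (SE) with an adjusted p of 0.0282 in edgeR's test. Isg15, a ubiquitin-like interferon product, stood at 145, 18.6 and 44.7 CPM in Control, 80.8, 47.1 and 249 after RT, 99.2, 77.7 and 40.7 under αPD-L1 and 470, 1147, 263 and 153 under RT + αPD-L1, a difference of 3.51 ± 0.77 from Control (adjusted p = 0.0292 in edgeR's test).

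**Figure D4:**
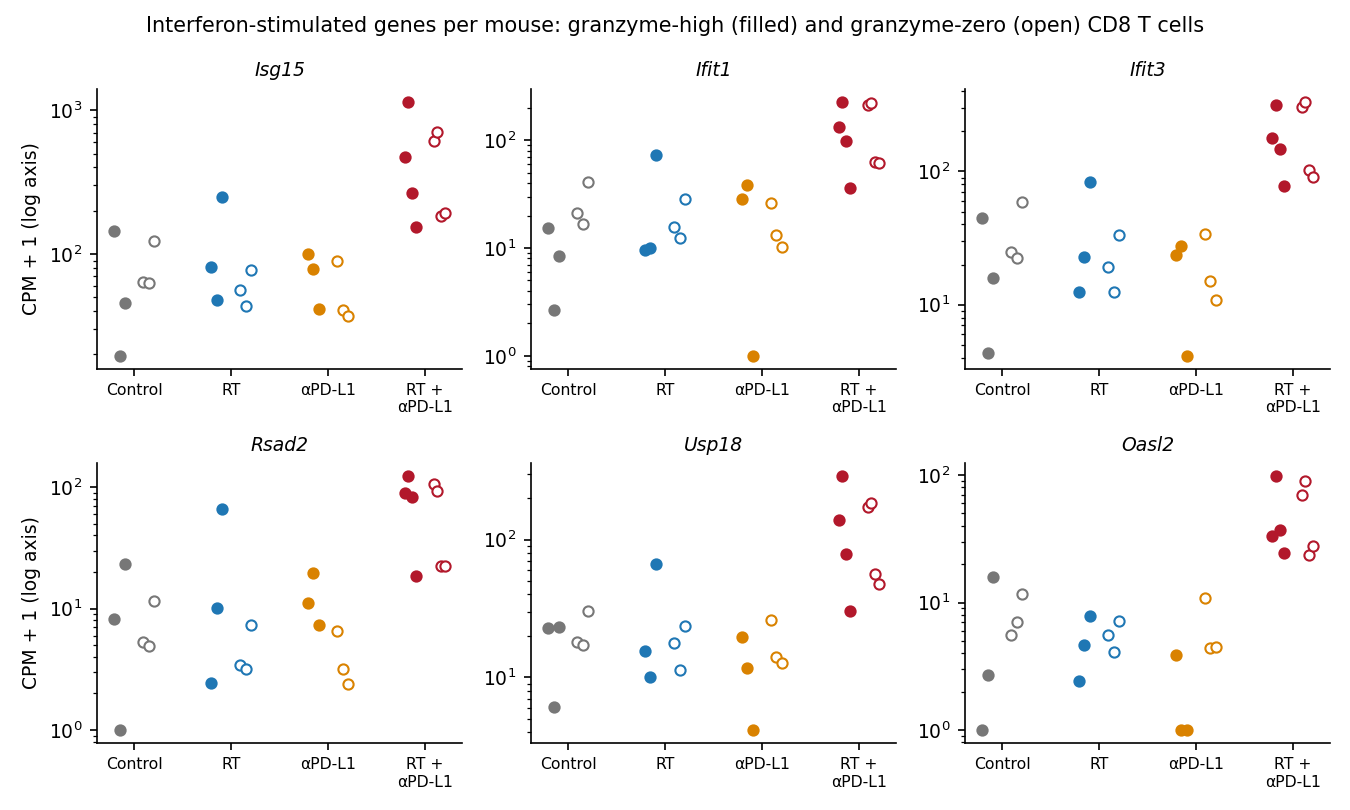
CPM + 1 (vertical log axis, a range of its own for each gene) of 6 interferon-stimulated genes in granzyme-high cells (filled) and granzyme-zero cells (open), 1 point per mouse, for 13 mice by treatment. Granzyme-high cells held 35.2 to 227 CPM of Ifit1 under RT + αPD-L1 and 1.69 to 14.5 CPM in Control, and the open points of RT + αPD-L1 also lie above those of Control.

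Of the interferon list 27 of 42 tested genes were higher in RT + αPD-L1 than in Control and none lower (median 2.24, against −0.0041 over all genes). Against RT there were 18 of 42 (median 1.68) and against αPD-L1 36 of 42 (median 1.74). RT and αPD-L1 alone had 0 of 42 each against Control, with medians of 0.73 and 0.51. Summed over the list, granzyme-high cells held 3035, 1845 and 1821 CPM in Control, 2943, 2128 and 3887 after RT, 3415, 2291 and 2405 under αPD-L1, and 7162, 13950, 6046 and 3269 under RT + αPD-L1, where mouse 5 lay below RT mouse 5 and αPD-L1 mouse 2.

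The granzyme-zero cells of the same mice moved in the same list. Of 43 genes 42 were higher in RT + αPD-L1 than in Control (median 1.54), where 9.29% of 12147 genes were called, 5.88% higher and 3.41% lower, and Ifit1 differed by 2.53. The treatment effect was tested directly between both classes, and for RT + αPD-L1 against Control 0 of 10596 genes were called (0%, with 793 at an unadjusted p under 0.05), Ifit1 at a difference of 2.07 with an adjusted p of 0.494 in edgeR's test. A larger interferon response in granzyme-high than in granzyme-zero cells was therefore not shown.

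Ifit3b, Rsad2 (viperin), Oasl2, Ifit3, Usp18, Ddx60 and Slfn5 were, with Ifit1, the largest rises that met the naming rule, from 3.85 to 4.92. Promoter sequence around the start of such genes is shown because interferon is known to act through a repeated GAAA element. RefSeq promoter windows (GRCm38.p6, from 250 bases before to 50 bases after the start) were searched on both strands for GAAA followed by any 2 bases and a second GAAA, whose matches may overlap. Of the 62 genes higher under RT + αPD-L1, 49 had a window and 24 of these held the motif (49.0%), against 212 of 4696 tested genes (4.51%), 3.44% of all 32851 windows, and 0 of 9 among the genes that were lower. Matches are printed 5′ to 3′ on the strand that reads GAAA, with the motif in capitals:
Ifit1, chr19:34640796-34640821, minus strand, 85 bases before the start: agcagtgaGAAACTGAAActgagact
Ifit1, chr19:34640777-34640802, minus strand, 104 bases before the start: tgagactgGAAAGTGAAActgaagcc
Ifit3, chr19:34583399-34583424, minus strand, 122 bases before the start: ggaaagtaGAAACTGAAAcagactta
Ifit3, chr19:34583365-34583390, minus strand, 156 bases before the start: cagaagagGAAAGTGAAActtaccac
Ifit3b, chr19:34607795-34607820, minus strand, 154 bases before the start: ggaaagtaGAAACTGAAAcagactta
Ifit3b, chr19:34607761-34607786, minus strand, 188 bases before the start: cagaagagGAAAGTGAAActtaccac
Rsad2, chr12:26456555-26456580, plus strand, 120 bases before the start: tgttttctGAAAATGAAAgttggacc
Ddx60, chr8:61928026-61928051, plus strand, 53 bases before the start: gatgaatgGAAACCGAAActtaaagc
Ddx60, chr8:61928060-61928085, plus strand, 19 bases before the start: gcagaagaGAAACCGAAActatcctt
Slfn5, chr11:82951939-82951964, plus strand, 155 bases before the start: ttcaaagtGAAAAAGAAAaaaaaaaa
The stretches printed for Ifit1 share flanking bases but not the motif itself, and the Ifit3 and Ifit3b stretches are the same bases, since these genes are near-identical neighbors whose reads may be shared. The window of Oasl2 did not hold these letters, and Usp18 was not matched to a window.

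Other genes moved too. Il7r stood at 43.4, 15.2 and 14.9 CPM in Control and at 84.8, 102, 120 and 106 under RT + αPD-L1, without overlap, a difference of 2.32 ± 0.53. Plac8 rose by 2.19 and Irf7, an interferon regulatory factor, by 2.88. Falls were found in Lta (lymphotoxin alpha, −2.56), Ung (a DNA repair enzyme, −1.61), Shmt2 (a mitochondrial enzyme of one-carbon metabolism, −1.29), Rrp15 (−1.24) and Hspa9 (a mitochondrial chaperone, −1.18). Lta stood at 28.9, 52.3 and 22.3 CPM in Control and at 6.17, 7.48, 6.50 and 0 under RT + αPD-L1.

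For RT + αPD-L1 against Control, none of the 14 granule genes and none of 7 NK-type receptor genes was called (medians 0.09 and 0.48) by edgeR's test. That test called 1.22% of all genes, with 837 at an unadjusted p under 0.05, so lists of this size would hold few calls at the background share. Gzmk stood at 166, 441 and 149 CPM in Control and at 160, 390, 410 and 223 under RT + αPD-L1, Klrk1 at 195, 147 and 14.9 against 57.0, 151, 91.0 and 164, and Tcf7 at 260, 160 and 238 against 200, 220, 260 and 141. These ranges overlapped. Ly6a stood at 499, 243 and 22.3 CPM in Control and at 836, 2023, 393 and 593 under RT + αPD-L1, a difference of 1.99 ± 0.57 with an adjusted p of 0.0877 in edgeR's test.

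Against RT alone, RT + αPD-L1 cells had more Plac8 (3.05) besides interferon-stimulated genes such as Oasl2 (4.20), Oas1a (2.96) and Tgtp1 (2.82), and less Sgk1, Rpa3 and Emp3 (−0.85, −0.66 and −0.61). Against αPD-L1 alone they had more Satb1 (a chromatin organizer of naive T cells, 2.17), the interferon-induced GTPase gene Iigp1 (4.86), Ifit1bl1 and the chemokine gene Cxcl10 (4.06), and less Hrh4, Fut7, Bub1, Cbx5 and Emp3.

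The treatment calls rested on single mice. Without RT + αPD-L1 mouse 3, 4 genes were called against Control, 1 against RT and 0 against αPD-L1, and in the interferon list 2 of 38 against Control, although its median stayed at 1.69. Without Control mouse 2 or Control mouse 5, 2 and 0 genes were called for RT + αPD-L1 against Control. Without RT mouse 2 or RT mouse 3 there was no call against RT, and without αPD-L1 mouse 2 none against αPD-L1.

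The single treatments gave few calls. Ruvbl1, an ATPase of chromatin complexes, fell by 1.45 after RT, from 101, 120 and 186 CPM in Control to 40.4, 47.1 and 62.2. Rrp15 and Ddx21, which serve ribosome assembly, and Shmt2 fell by 2.46, 1.14 and 1.65 under αPD-L1. For 6 genes after RT (0.0566% of 10596) and 9 under αPD-L1 (0.0849%) the change differed from that in granzyme-zero cells of the same mice, and those that met the naming rule were higher for Hmgb2, H2afz and Hist1h1e, which package DNA, and lower for Srm, Ruvbl1, Rrp15, Rrs1, Apex1 and Shmt2. The Control values came from 61 cells of 3 mice, and Control mouse 1 held 123 CPM of Mki67 where the other 12 mice held 277 to 498 CPM.

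Antigen receptor segments were not part of the rule. Among cells with exactly 1 detected Trbv segment, several mice had a segment that took a large part of the granzyme-high cells. Chosen as the most frequent one in each mouse, and so given without a test, Trbv2 made up 8 of 13 cells in Control mouse 2 (61.5%, against 7.76% of its granzyme-zero cells), and Trbv13-1 made up 19 of 31 in RT mouse 2 (61.3% against 8.31%) and 9 of 21 in RT mouse 3 (42.9% against 10.0%). In αPD-L1 mouse 2 Trbv29 made up 18 of 78 (23.1% against 8.66%), and in αPD-L1 mouse 3 Trbv19 made up 6 of 13 (46.2%), level with another segment. Under RT + αPD-L1, Trbv5 led in mouse 3 with 57 of 389 (14.7% against 5.35%) and Trbv12-2 in mouse 2 with 5 of 24 (20.8%). When each cell was given its segment with the most UMIs, the same segments led these mice with smaller shares. They were 40.0% in Control mouse 2, 40.4% and 36.6% in RT mice 2 and 3, and 16.8% and 44.4% in αPD-L1 mice 2 and 3. In RT + αPD-L1 mice 3 and 2 they were 11.1% and 13.7%.

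**Figure D5:**
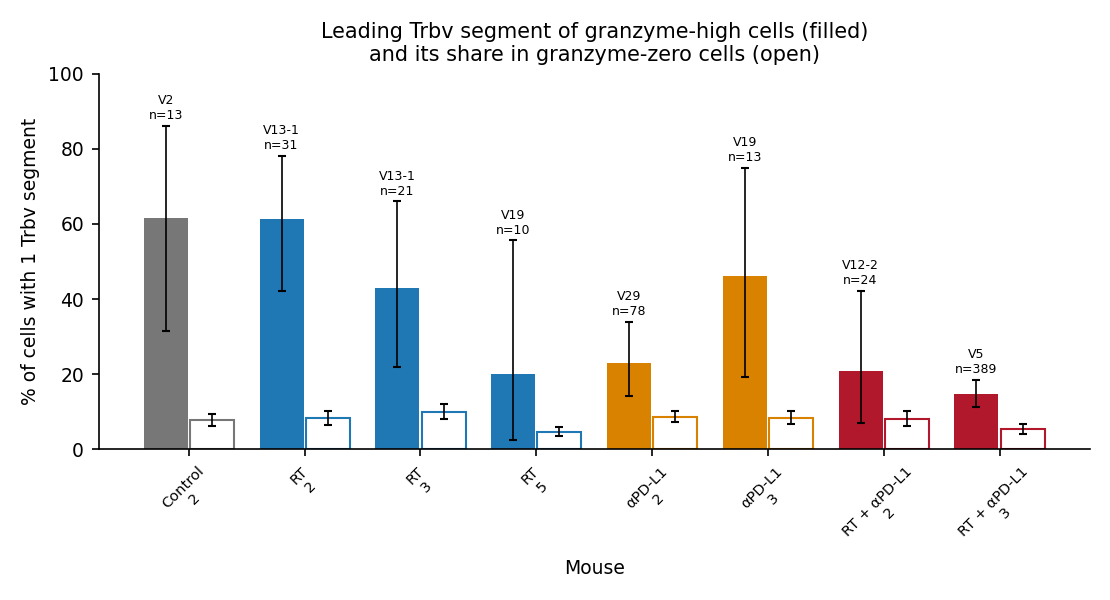
Percent of cells with exactly 1 Trbv segment that used the segment most frequent among the granzyme-high cells of that mouse (V stands for Trbv), in granzyme-high (filled bars, n above) and granzyme-zero cells (open bars), for the 8 mice with at least 10 such granzyme-high cells, with 95% exact binomial intervals that cover counting error only. The leading segment reaches 61.5% in Control mouse 2 and 14.7% in RT + αPD-L1 mouse 3, and in RT mouse 5 and αPD-L1 mouse 3 it was tied with another.

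In RT mouse 2, 7 of 13 granzyme-high cells with 1 Trbv and 1 Trav segment paired Trbv13-1 with Trav4-3, and in αPD-L1 mouse 2, 11 of 30 paired Trbv29 with Trav4-3. RT + αPD-L1 mouse 3, with the most cells, had its most frequent pair in 17 of 192. The probability that 2 granzyme-high cells of a mouse used the same segment was 0% to 38.5% (median 8.10%) over 13 mice, against 5.93% to 6.76% in granzyme-zero cells, and it was higher in 8 of 13 mice. These mice had from 2 to 389 granzyme-high cells with exactly 1 Trbv segment. The values of 0% came from Control mouse 5 (2 such cells) and RT + αPD-L1 mouse 4 (9). The leading segments were 9 different ones over the mice, a count that depends partly on how ties were broken. In RT + αPD-L1 mouse 4, 9 segments were tied at 1 of 9 cells, and in Control mouse 5, 2 were tied at 1 of 2. The leader of RT + αPD-L1 mouse 5 rested on 2 of 7 cells. Of 17 segments tested across the 5 mice with enough cells, none differed in an exact sign-flip test, in which 5 mice cannot give a p below 0.0625.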

How the data were processed

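For each barcode of 4 10x Genomics libraries the authors deposited unnormalized UMI counts of genes and hashtags, made with Cell Ranger and an mm10 reference; the header gives version 6.1.2 and the study's methods another. The labels name a 3' kit, whereas the hashtag reagents are usually read with 5' kits, which leaves the counts as they are. Barcodes were kept that held 500 to 5000 genes and no more than 40000 UMIs, of which under 10% were mitochondrial. Barcodes were given to mice where exactly 1 hashtag was positive, by a split at the emptiest bin between the modes of the log counts; the study's HTODemux (Seurat 5.3.0, margin 2) was an alternative. No doublet caller was run. The cells, gene lists and tests were chosen with earlier results of these data known.

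UMI counts were summed per mouse and class, the 9 genes of the rule were removed, and edgeR 4.0.16 (TMM, filterByExpr, quasi-likelihood F test, two-sided, Benjamini-Hochberg) was fitted in R 4.3.3 to mice with at least 10 cells per class. CPM were scaled to the tested genes' counts after TMM normalization, so they differ slightly between fits. Shares were compared by exact permutation over mice (scipy 1.17.1). Genes named were the 12 largest rises and 8 largest falls per class comparison with at least 20 CPM and 1 sign in every mouse, or the 8 largest rises and 5 largest falls per treatment comparison, and genes of the 30 lists; predicted genes and receptor segments were not named, and a few genes are not reported here. Intervals and floors (3 counts) cover counting error only. The same code was tested on simulated counts. Alternatives included DESeq2 1.42.0, RLE scaling, no filter, thinned cells, other granzyme and cell minimums and leaving out each mouse; the fits without Mki67 or Top2a cells within treatments and against the 2 granzyme-zero classes, and the one on all cells of the 6 mice, were added after seeing the data.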

Additional observations from a re-analysis of the deposited data

Results flagged for a closer look

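Of 34 groups of 4 or 5 mice in which a single mouse could be tested for lying apart from the rest, 3 had such a mouse, where chance gives about 1 in 20, and in all 3 it was RT + αPD-L1 mouse 3. Its share of granzyme-high cells was 20.2%, its Gzmb level was 2797 CPM and its Oasl2 level was 97.3 CPM in granzyme-high cells. The share and the Gzmb level rest on values the rule used. For levels within granzyme-high cells only RT + αPD-L1 had 4 mice with enough cells, the other treatments 3 each. Only a mouse of that group could be flagged there, and the groups share mice, so the flags are not separate support. This mouse also gave the most CD8 T cells of its library (4369, or 2201 with HTODemux).

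After RT, the change from Control differed between granzyme-high and granzyme-zero cells of the same mice, by an interaction term in edgeR's quasi-likelihood test, for Hist1h1e (1.31 on the log2 scale), Hmgb2 (1.07), H2afz (0.81), Srm (−1.72) and Ruvbl1 (−1.34). Under αPD-L1 it differed for Hmgb2 (0.99), Rrp15 (−2.31), Rrs1 (−1.57), Apex1 (−1.42), Srm (−1.40) and Shmt2 (−1.29). The linker histone gene Hist1h1e averaged 492 CPM after RT and 296 CPM in Control among granzyme-high cells, and 144 and 200.1 CPM among granzyme-zero cells. Srm averaged 111 and 418 CPM among granzyme-high cells, and 94.5 and 103 CPM among granzyme-zero cells. Both contrasts share the 61 Control cells of 3 mice. Leaving out a mouse moved these counts of calls between 1 and 79 after RT and between 0 and 39 under αPD-L1, with 79 without RT mouse 5 and 39 without Control mouse 2.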

How the results depend on the processing

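Depth, few cells per mouse and a single library per treatment limit these results: only Control mouse 2 of its group had more than 15 granzyme-high cells, and RT + αPD-L1 mouse 3 outweighed the other mice. The difference in share between RT + αPD-L1 and Control was 4.42 points with HTODemux, 7.25 with a minimum of 2 granzyme UMIs and 2.21 counting only granzyme-high cells without Mki67 or Top2a, each past the threshold after adjustment, but with at least 5 UMIs (3.81) and with thinned cells (3.36) the adjusted p in the exact test was 0.159, and without 1 mouse it was 0.0794 to 0.159. Against RT it was 6.75 with 2 UMIs and 2.16 without Mki67 or Top2a cells, against αPD-L1 2.27 without them, all past it, and αPD-L1 against Control turned to −0.061 without them. Leaving out a mouse gave 0.235 to 0.671 (RT against Control), 0.115 to 1.01 (αPD-L1 against Control), 1.13 to 5.95 (RT + αPD-L1 against Control), 0.617 to 5.44 (against RT) and 0.447 to 5.27 (against αPD-L1).

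Calls between granzyme-high and granzyme-zero cells numbered 3285 with thinned cells, 1291 without Mki67 or Top2a cells in 6 mice (4992 with all cells of these mice) and 6282 without the mouse as a block, which paired both classes, and 5223 to 5971 without 1 mouse. Against Tcf7+ Ly6a+ cells there were 985 without Mki67 or Top2a cells and 4174 to 4808 without 1 mouse, and against S100a4+ Cxcr3+ cells 784 and 3037 to 3504. Gzma-only against Gzmb-only cells gave 815 calls with RLE scaling and 642 without a filter, and no mouse could be left out of 2.

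For RT, αPD-L1 and the combination, each against Control, then the combination against RT and αPD-L1, in this order, calls numbered 0, 0, 11, 9 and 57 with HTODemux, 0, 9, 403, 190 and 303 with at least 2 granzyme UMIs, and 0, 0, 22, 94 and 92 with at least 5. DESeq2 gave 64, 88, 69, 31 and 26, among 1435, 1549, 3944, 4286 and 5881 genes to which it gave an adjusted p. The edgeR fit tested 5883 genes in each, so these counts are not directly comparable. Without a filter there were 0 for RT against Control and 12 against RT, with at least 20 cells per mouse 153 against RT and 199 against αPD-L1, and without Mki67 or Top2a cells 21 against RT. Leaving out 1 mouse gave 0 to 57, 0 to 62, 0 to 126, 0 to 116 and 0 to 149. Differences in treatment effect between the classes numbered 155, 126 and 80 without a filter, and 1 to 79, 0 to 39 and 0 to 12 without 1 mouse. Trbv segments gave 1 call when the segment with the most UMIs was used. The causes were not tested.

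Genes that had not passed the test changed sign: Ifng against S100a4+ Cxcr3+ cells was 0.21 without Mki67 or Top2a cells and −0.20 to 0.024 without 1 mouse; for RT + αPD-L1 against Control, Klrk1 was 0.13 and Gzmk −0.31 with HTODemux, Tcf7 was −0.025 with DESeq2, and without 1 mouse they ranged over −0.49 to 0.14, −0.17 to 0.93 and −0.25 to 0.19. Among the values of named genes under alternatives, 373 were no longer past the threshold, 3 newly were, 15 changed sign and 3949 kept both. Treatment was pooled by library, and mouse numbers were hashtags, so no paired analysis was possible between treatments because a number did not link mice.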

Other observations

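The rule passed over some cells with as much granzyme RNA. Of 1801 filtered barcodes with at least 3 granzyme UMIs, 164 were left out, 67 of them with a UMI of H2-Aa, 45 with Trdc, 41 without Cd8a or Cd8b1, 30 without Cd3e or Cd3d and 13 with Cd79a, some for several reasons. By library, 8 of 93 such barcodes were left out in Control, 30 of 175 in RT, 36 of 284 in αPD-L1 and 90 of 1249 in RT + αPD-L1. Among them 34 held Cd3 and Cd8 UMIs together with the γδ T cell gene Trdc, and 18 held Cd3 UMIs without Cd8 or Trdc.

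When cells were given the Trbv segment with the most UMIs, which kept 10 mice, Trbv14 was 2.58 percentage points lower in granzyme-high than in granzyme-zero cells and lower in 10 of 10 mice (exact sign-flip test, p = 0.00195, the smallest that 10 mice can give, and 0.0371 after Benjamini-Hochberg adjustment over 19 segments). Trbv14 was not among the 17 segments tested in cells with exactly 1 segment. The part of small cell numbers per mouse in its difference was not tested. More than 1 Trbv segment was detected in 53.3% of granzyme-high and 54.4% of granzyme-zero cells.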
